A study of Mus musculus with 2 samples.

Results

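Of the 43026 genes named in at least 1 of 2 tables of counts from mouse testis, 10 form the 5 pairs described here, each a cytosolic ribosomal protein gene (the parent) and its paralog. The members, taken by gene name from both tables, were Rpl10 and Rpl10l, Rpl39 and Rpl39l, Rpl22 and Rpl22l1, Rpl3 and Rpl3l, and Rps27 and Rps27l. They were followed through the steroid-producing Leydig cells and the stages of the male germ line. The tables hold single cells captured on the BD Rhapsody system, a microwell method that reads polyadenylated RNA, from testes of mice aged 2 months (the young library) and 24 months (the aged library). Testes were cut up and digested with accutase, per the labels, which give no strain, no treatment beyond anaesthesia and no number of mice behind a library. Each age is a single library (n = 1), so differences between ages rest on no replicates and carry no test. Intervals are exact 95% intervals and cover counting error only, and the sources do not say if reads or molecules were counted.

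Ribosomal proteins coat and shape the ribosome, the particle that makes all cell proteins, and most are used in every tissue. A few have a second gene that takes over in 1 tissue. In meiosis the X chromosome of male germ cells is silenced, and it stays largely repressed in the haploid cells that follow, so X-linked genes of general need often have an autosomal copy that is active in the testis. Rpl10 and Rpl39 lie on the X chromosome. The RPL10 protein sits near the catalytic centre of the large subunit and joins it late in assembly, and mouse Rpl10l is known to be required for male meiosis. RPL39 lines the tunnel through which the new protein leaves, and mouse Rpl39l is known for its use in spermatogenic cells. RPL22 is an RNA-binding protein of the large subunit which, in the mouse, is known to hold down its own paralog Rpl22l1. RPL3 reaches towards the catalytic centre, and Rpl3l is known from heart and skeletal muscle. RPS27 belongs to the small subunit, and Rps27l is known as a target of the tumour suppressor p53.

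In the GENCODE M21 annotation of GRCm38, the build also named mm10 in the submitters' processing notes, Rpl10 lies at chrX:74270812-74273135 with 7 exons and Rpl10l at chr12:66283379-66284401 as a single exon. Rpl39 lies at chrX:37082520-37085402 and Rpl39l at chr16:10170226-10174911, each with 3 exons. Rpl22 lies at chr4:152325742-152334071 and Rpl22l1 at chr3:28805436-28807424, each with 4 exons. Rpl3 lies at chr15:80077791-80091868 and Rpl3l at chr17:24727820-24736143, each with 10 exons. Rps27 lies at chr3:90212522-90213651 with 4 exons and Rps27l at chr9:66946086-66949516 with 5. The coding sequences of Rpl10 and Rpl10l are alike in 544 of 642 bases (84.7%), and 3 of their 96 differing codons encode another amino acid. Rpl39 and Rpl39l match in 130 of 153 bases (85.0%), and 3 of 21 differing codons encode another amino acid. Identity over the aligned coding bases was lower for Rpl22 and Rpl22l1 (67.5%), Rpl3 and Rpl3l (73.2%) and Rps27 and Rps27l (61.9%, where Rps27l is longer). How reads that match both members of a pair were counted is not given in the sources used here.

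The short coding sequences of Rpl39 and Rpl39l, without the stop codon, are shown because this pair exchanged most completely between the somatic and germ cells. They come from the GENCODE M21 transcripts, and capitals mark the bases at which they differ.
Rpl39: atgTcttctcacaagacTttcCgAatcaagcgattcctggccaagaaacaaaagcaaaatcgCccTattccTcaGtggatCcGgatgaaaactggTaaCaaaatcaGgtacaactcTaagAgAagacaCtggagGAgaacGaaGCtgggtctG
Rpl39l: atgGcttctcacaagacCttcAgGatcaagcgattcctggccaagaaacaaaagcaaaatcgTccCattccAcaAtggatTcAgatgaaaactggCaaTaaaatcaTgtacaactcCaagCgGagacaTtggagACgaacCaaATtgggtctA
The sequences align without a gap, and a run of identical bases near the start separates the first differences from the others.

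The promoters of the X-linked parents and of their copies are shown because within each of these groups the levels moved together across cell types. The windows hold 100 bases before and 15 after the transcription start in the RefSeq table of GRCm38.p6, and capitals mark matches to TATAAA, TGACGTCA or TAACNG on either strand.
Rpl10, chrX:74270716-74270830, plus strand: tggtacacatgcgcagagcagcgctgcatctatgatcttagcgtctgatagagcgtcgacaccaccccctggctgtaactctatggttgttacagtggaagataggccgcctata
Rpl10l, chr12:66284387-66284501, minus strand: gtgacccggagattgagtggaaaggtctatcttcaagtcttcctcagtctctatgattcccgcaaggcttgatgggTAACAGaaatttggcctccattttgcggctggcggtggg
Rpl39, chrX:37085208-37085322, minus strand: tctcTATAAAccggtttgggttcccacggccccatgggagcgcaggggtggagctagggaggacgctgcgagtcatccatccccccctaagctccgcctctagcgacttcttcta
Rpl39l, chr16:10170128-10170242, plus strand: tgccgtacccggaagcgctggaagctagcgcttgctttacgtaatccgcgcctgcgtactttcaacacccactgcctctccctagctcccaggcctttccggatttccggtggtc
The windows of Rpl10l and Rpl39 hold a match each, to TAACNG and TATAAA, and those of Rpl10 and Rpl39l hold none. In the full promoters of the table (250 bases before to 50 after the start), TAACNG stood in those of Rpl10l and Rpl39l. It also stood in an entry of Rpl22 and of Rps27l but not in the other entry of either gene, and in 23.3% of all 32851 promoters. TATAAA stood in the promoters of Rpl39 and Rpl22l1, in the same entry of Rpl22 as TAACNG, and in 13.6% of all. No member matched TGACGTCA, which 1.79% of all promoters hold. A start with C followed by 4 pyrimidines was found for Rps27 and in 2.51% of all. Rpl3 has no entry in the table.

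The deposited young cells numbered 2771 with 53413783 counts, and the aged cells numbered 6823 with 66390904. After filtering, 2732 young cells with a median of 15650 counts and 5691 aged cells with a median of 11381 were analysed. Clusters, built without any ribosomal protein gene, were named from fixed marker lists. The young library gave 1085 Leydig-like cells, 661 spermatocyte-like cells, 463 cells like round spermatids and 211 like elongating spermatids, and the aged library gave 580, 2289, 730 and 503. Germ cell classes were thus large in both libraries, although the labels call the cells stroma cells. Leydig-like cells of the libraries sat largely in different clusters, with 1055 of the young cells in cluster 1 and 523 of the aged cells in cluster 5. Of the spermatocyte-like cells, 40 young and 815 aged ones were in the early to mid stage (cluster 3) and the others in the late stage (clusters 0 and 2). The tables share 35 cell index numbers. Stray RNA was gauged from transcripts of the other lineage. The spermatid transcripts Prm1, Prm2, Tnp1 and Tnp2 stood in Leydig-like cells at 11.2% (young) and 6.42% (aged) of their level over the whole library, and Leydig markers stood in spermatocyte-like cells at 5.91% and 20.99% of theirs.

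Rpl10 and Rpl39 were almost absent from spermatocytes and round spermatids, while Rpl10l and Rpl39l were high there. In Leydig-like cells Rpl39 stood at 724 CPM (706 to 743; CPM is counts scaled to a class total of 1000000) in young cells and 678 (647 to 709) in aged ones. In spermatocyte-like cells it stood at 1.91 CPM (1.37 to 2.59) and 1.18 CPM (0.868 to 1.57). The Leydig-like level was thus 380-fold (280 to 530) and 574-fold (430 to 784) that of spermatocyte-like cells, and no interval overlapped between the classes. Rpl39l ran the other way, with 26.6 CPM (young) and 22.8 CPM (aged) in Leydig-like cells against 854 and 783 CPM in spermatocyte-like cells, a ratio of 32.1 (28.0 to 37.0) and 34.3 (26.8 to 44.5).

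In Leydig-like cells Rpl10 stood at 127 CPM (119 to 135; young) and 81.7 CPM (71.4 to 93.0; aged). Spermatocyte-like cells held 6 counts of it in all in the young library (0.279 CPM) and 8 counts in the aged library (0.201 CPM). The Leydig-like level was 453-fold (207 to 1238) and 406-fold (203 to 952) higher. Rpl10l stood at 21.9 and 23.9 CPM in Leydig-like cells and at 639 and 596 CPM in spermatocyte-like cells, 29.2-fold (25.1 to 34.1) and 24.96-fold (19.6 to 32.2) higher. For both paralogs either library gave the order spermatocyte-like, round spermatid-like, elongating spermatid-like, then Leydig-like, with no overlap between neighbouring intervals. For Rpl10 the intervals of the germ cell classes overlapped throughout.

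The trace in the class that lacks a gene was set against stray RNA. Rpl10l and Rpl39l stood in Leydig-like cells at 4.77% and 4.14% of their library level in the young and 4.67% and 3.39% in the aged cells, below the spermatid transcripts given above. Rpl10 and Rpl39 stood in spermatocyte-like cells at 1.16% and 1.37% of their library level in the young and 4.13% and 2.89% in the aged cells, below the Leydig markers. A subtraction of stray RNA is given with the shares below. As the traces lay below the level it takes off, it removes them whole whatever their source. The part of stray RNA in these traces was not tested.

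**Figure D1:**
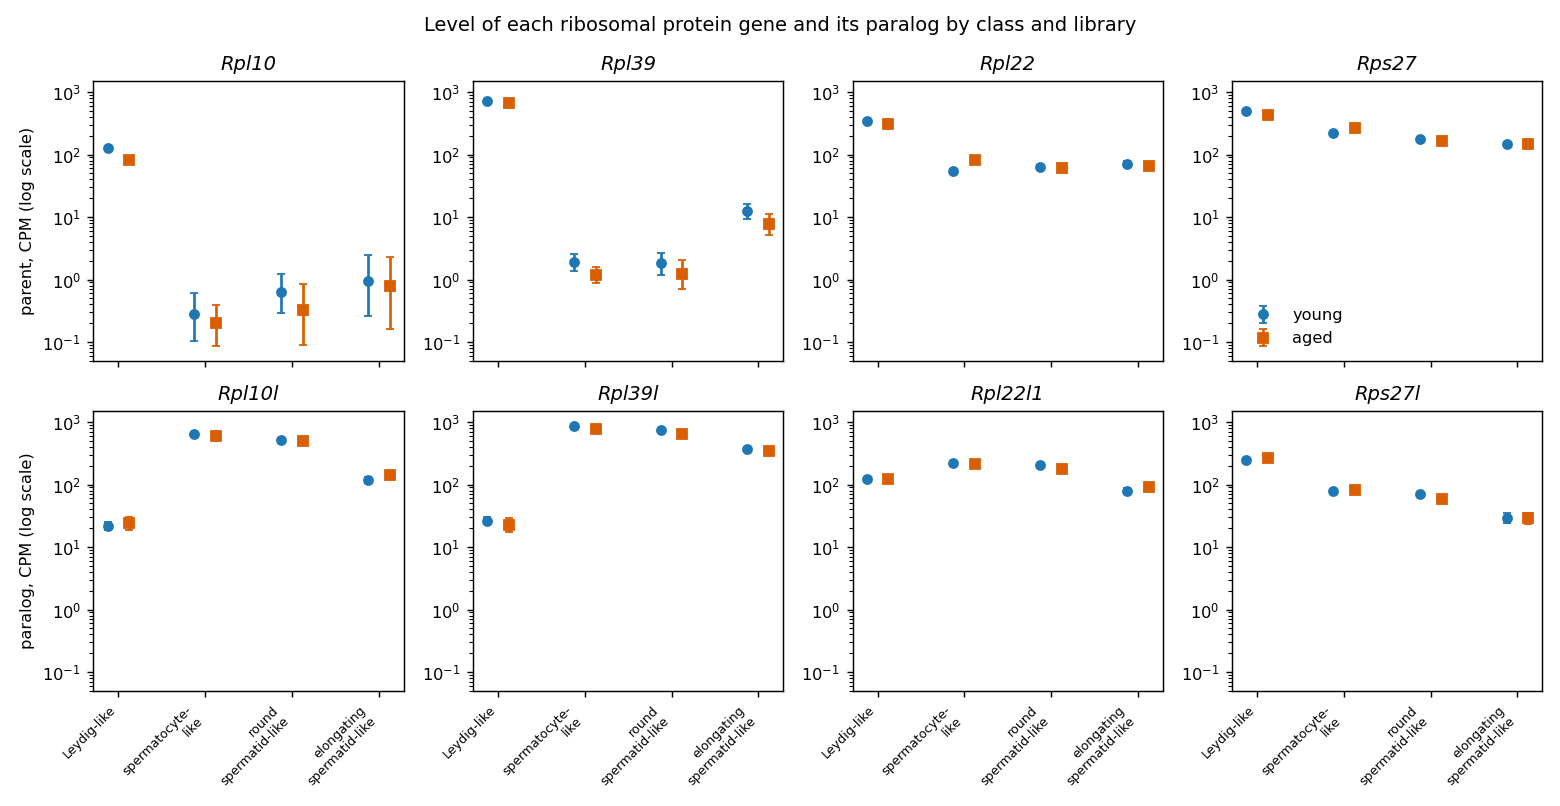
Level of each parent (upper row) and paralog (lower row) in CPM on a log scale, by class, for the young (circles) and aged (squares) library, with exact Poisson 95% intervals. Rpl10 and Rpl39 stand between 0.201 and 12.6 CPM in every germ cell class and at 81.7 CPM or more in Leydig-like cells, while Rpl10l and Rpl39l show the opposite order and Rpl22l1 and Rps27l change less.

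The same exchange was visible cell by cell. Every one of the 661 young spermatocyte-like cells (median 30661 counts) held a count of Rpl10l and of Rpl39l, against 14.1% and 16.3% of young Leydig-like cells (median 6936 counts) and 7.09% and 8.66% of young macrophage-like cells (median 5014 counts), a class that should lack both. Among 2289 aged spermatocyte-like cells (median 17055 counts) the shares were 98.3% for both genes. After each cell was thinned to 2000 counts, a count of Rpl39l was left in 79.3% (young) and 77.3% (aged) of spermatocyte-like cells, in 5.62% and 2.84% of Leydig-like cells and in 3.15% and 14.3% of macrophage-like cells. Thinning left out 52 aged Leydig-like, 48 aged spermatocyte-like and 35 aged macrophage-like cells and no young ones. Of the thinned young spermatocyte-like cells, 522 of 661 held Rpl39l alone, 2 held Rpl39 and Rpl39l together and 0 held Rpl39 alone. Of 2241 thinned aged ones, 1727 held Rpl39l alone, 5 both and 1 Rpl39 alone. Of the thinned young Leydig-like cells, 753 of 1085 held Rpl39 alone, 42 both and 19 Rpl39l alone.

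Given as the share of a pair's counts, Rpl10l made 14.8% (12.8 to 16.9) of the pair in young and 22.6% (18.0 to 27.8) in aged Leydig-like cells, and 99.96% and 99.97% in spermatocyte-like cells. Rpl39l made 3.54% (3.09 to 4.04) and 3.26% (2.52 to 4.14) in Leydig-like cells and 99.8% in spermatocyte-like cells of either library. Dividing each count by the longest coding transcript left Rpl39l at 99.7% and 99.8% of its pair in spermatocyte-like cells and Rpl10l at 99.9% and 99.96%. The part of Rpl10 may be undercounted, which was not tested, as the pseudogene column Rpl10-ps3 held more counts than Rpl10 itself. That column stood at 303 CPM (young) and 197 CPM (aged) in Leydig-like cells and at 2.70 and 0.779 CPM in spermatocyte-like cells, the same order of classes as Rpl10. With the named pseudogene columns added to Rpl10, Rpl10l made 99.5% and 99.8% of the pair in spermatocyte-like cells, and 4.79% and 7.79% in Leydig-like cells. With called doublets kept, the Leydig-like shares were 22.8% and 47.3% for Rpl10l and 6.50% and 10.7% for Rpl39l. With stray RNA subtracted, the Leydig-like share of both paralogs was 0% in both libraries. This outcome was fixed in advance, because their traces lay below the stray level taken off.

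Within the germ line the clusters were ordered by stage markers, with Sycp3 of the meiotic chromosome axis falling and the acrosomal Acrv1 and, over the later clusters, the protamine Prm1 rising: clusters 3, 2 and 0 (spermatocyte-like), 9 (between spermatocyte and round spermatid), 6, 8 and 12 (round spermatid-like), and 11 and 7 (elongating spermatid-like). Within a library Prm1 did not rise from cluster 3 (181 CPM young, 56.0 aged) to late spermatocyte-like cells (140 and 48.7). Rpl10l stood at 515 CPM (young) and 548 CPM (aged) in cluster 3, at 639 and 598 in cluster 2, at 649 and 644 in cluster 0 and at 655 and 639 in cluster 9. It then lay at 614 and 594 CPM in cluster 6, 474 and 495 in cluster 8, 328 and 319 in cluster 12, 158 and 180 in cluster 11 and 84.0 and 74.0 in cluster 7. The highest values thus lay around the end of meiosis, in clusters 0 and 9, and the lowest in the most advanced spermatids. The top was flat. In the young library the level of cluster 2 lay inside the interval of cluster 9 (628 to 682). That interval also met the one of cluster 6 (596 to 632), as it did in the aged library (612 to 667 and 572 to 616).

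Rpl39l was highest earlier, in cluster 2, and its decline was shallower. It stood at 771 and 729 CPM in cluster 3, 916 and 856 in cluster 2, 826 and 734 in cluster 0, 845 and 774 in cluster 9, 852 and 726 in cluster 6, 686 and 632 in cluster 8, 542 and 506 in cluster 12, 394 and 370 in cluster 11 and 350 and 316 in cluster 7. Between round and elongating spermatid-like cells Rpl10l was lower by 4.39-fold (4.01 to 4.81; young) and 3.52-fold (3.22 to 3.85; aged). For Rpl39l the difference was 2.02-fold (1.92 to 2.13) and 1.83-fold (1.73 to 1.94). Levels were also set against the core ribosomal protein counts of the same young cells, a total that leaves out the paralogs. Per 1000 such counts Rpl39l had 49.7 in spermatocyte-like, 55.1 in round spermatid-like and 30.5 in elongating spermatid-like cells. Rpl10l had 37.2, 38.5 and 9.80. Across 28 points, each a cluster of at least 50 cells in a library, Rpl10l and Rpl39l had a Pearson correlation of 0.94 in log2(CPM + 1), and Rpl10 and Rpl39 of 0.98. The points share 2 libraries and neighbouring cells, so this is a description only.

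**Figure D2:**
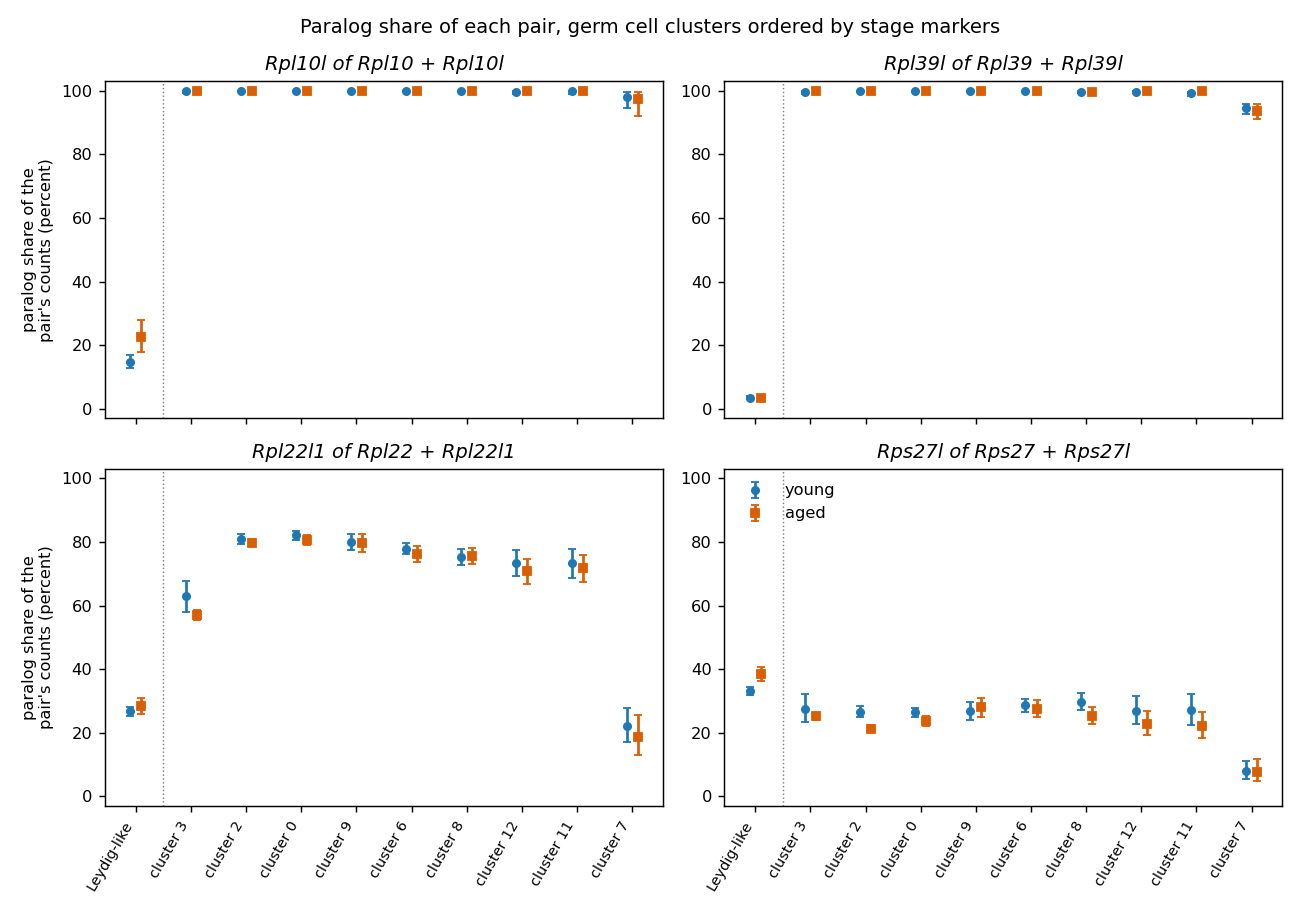
Paralog share of the pair's counts in percent (exact Clopper-Pearson 95% intervals) in Leydig-like cells, left of the dotted line, and in germ cell clusters ordered by stage markers, young (circles) and aged (squares). Rpl10l and Rpl39l make over 93% in every germ cell cluster, Rpl22l1 lies near 60% in cluster 3, near 80% in late spermatocytes and near 20% in cluster 7, and Rps27l is lowest in cluster 7.

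Stages before these were found in aged cells alone, as parts of cluster 14 (145 of its 146 cells were aged), which was split after the clusters had been seen. A group of 23 cells led by Crabp1, Sall4, Sohlh1, Kit and Dmrt1, with all 12 spermatogonia markers detected, held 22 counts of Rpl39 (211 CPM, 132 to 320) and 15 of Rpl39l (144 CPM, 80.6 to 237). Its Rpl39l share of 40.5% (24.8 to 57.9) lay between that of Leydig-like and spermatocyte-like cells, with no overlap of intervals. Rpl10l made 19 of 21 counts of its pair there (90.5%, 69.6 to 98.8). A group of 43 cells with the meiotic recombinase gene Dmc1 and the synaptonemal complex gene Tex12 among its leading genes held 30 counts of Rpl39 (354 CPM) and 12 of Rpl39l (142 CPM), a share of 28.6% (15.7 to 44.6). In these cells Rpl10l made 24 of 26 counts (92.3%, 74.9 to 99.1). Over the 145 aged cells of cluster 14 the column Rpl10-ps3 held 20 counts and Rpl10 held 7. Rpl10 may thus be undercounted in both groups, which was not tested. Another group of 30 cells, led by genes such as Piwil2 and Hspa2, held 3 counts of Rpl39 and 12 of Rpl39l (80.0%, 51.9 to 95.7). All 3 groups fall under 50 cells, and Sertoli markers stood in them at 125, 532 and 1214 CPM, against 22.0 CPM in aged spermatocyte-like cells. Their part in the Rpl39 counts was not tested.

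In elongating spermatid-like cells Rpl39 was seen again at a low level, 12.6 CPM (9.40 to 16.4; young) and 7.74 CPM (5.22 to 11.1; aged), 6.82-fold (4.19 to 11.4) and 6.24-fold (3.25 to 12.5) the level of round spermatid-like cells. Leydig markers stood in these cells at 3.52% and 7.01% of their library level and Rpl39 at 9.003% and 19.0% of its own. The counts sat mainly in cluster 7, with 46 of 53 young and 30 of 30 aged ones. That cluster also carried Sertoli markers, at 399 and 488 CPM. At a finer resolution a group of 24 young and 58 aged cells parted from it with Sertoli markers at 1696 and 3080 CPM and Rpl39 at 70.9 CPM (44.9 to 106) and 112 CPM (70.3 to 170). The other 114 young and 265 aged cells, with Sertoli markers at 176 and 72.9 CPM, held Rpl39 at 12.2 CPM (7.76 to 18.4) and 6.55 CPM (2.83 to 12.9). Rpl10 in elongating spermatid-like cells rested on 4 and 3 counts.

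X-linked genes were broadly low in spermatocytes. Of 591 X-linked genes with 10 or more counts in the young library, 461 (78.0%) were at least 2-fold lower in spermatocyte-like than in Leydig-like cells, against 38.3% of autosomal genes, and in the aged library 75.0% of 553 against 33.2%. All 4 X-linked ribosomal protein genes were among them. Rps4x, of the small subunit, stood at 556 and 470 CPM in Leydig-like and at 0.977 and 0.678 CPM in spermatocyte-like cells, and Rpl36a, of the large subunit, at 319 and 297 against 0.652 and 0.427. Their named autosomal relatives behaved unequally. Rps4l, annotated as a pseudogene on chromosome 6, was 3.43-fold (2.90 to 4.10) and 3.88-fold (2.94 to 5.22) higher in spermatocyte-like cells. Rpl36al on chromosome 12 was at 0.613 (0.536 to 0.701) and 0.687 (0.552 to 0.863) times its Leydig-like level.

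In round spermatids 76.1% (young) and 76.3% (aged) of X-linked genes were at least 2-fold higher than in spermatocyte-like cells. Rpl39 was not among them, at 0.964 times (0.566 to 1.61) and 1.05 times (0.546 to 1.91). Rps4x was at 1.45 times (0.745 to 2.81) and 1.71 times (0.827 to 3.37), Rpl36a at 0.760 times (0.260 to 2.01) and 1.55 times (0.579 to 3.79), and Rpl10 at 2.28 times (0.725 to 7.79) on 9 and 6 counts in the young and 1.65 times (0.363 to 6.14) on 4 and 8 counts in the aged library. All 4 X-linked ribosomal protein genes stood at 1.84 CPM or less in round spermatid-like cells. At this depth a small change of Rpl10 or Rpl36a was not detectable.

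The same exchange was looked for in 9 other X-linked genes with an autosomal copy known from testis, such as Pgk1 and Pgk2 of glycolysis and Pdha1 and Pdha2 of pyruvate oxidation. All 9 X-linked genes were at least 2-fold lower in spermatocyte-like than in Leydig-like cells of both libraries, and 8 of 9 copies were at least 2-fold higher. In Leydig-like cells the copies' median share was 19.8% (young) and 16.2% (aged), with Gk2 at 93.9% and 88.2% and Cetn1 at 55.7% and 53.8%. Gk2 stood there at 25.2 and 21.4 CPM, beside 13 and 8 counts of Gk, and Cetn1 at 55.2 and 53.5 CPM. The part of stray germ cell RNA in these Leydig-like shares was not tested. The copy made 90% or more of the pair's counts in 8 of 9 pairs in spermatocyte-like cells of either library, and the exception was Ubl4b with 43.6% and 35.6%. In round spermatid-like cells 5 of 9 pairs were past that share. There Cstf2, an RNA 3' end processing factor, stood at 101 and 114.7 CPM, and its copy Cstf2t made 9.58% and 8.21% of the pair, and Utp14b, of ribosome assembly, made 53.3% and 55.2%. Rpl10l and Rpl39l remained above 99.7% of their pairs in the same cells. In elongating spermatid-like cells Slc25a31, a mitochondrial ADP and ATP carrier, made 13.6% and 34.3% of its pair, against 97.1% and 98.8% in spermatocyte-like cells.

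**Figure D3:**
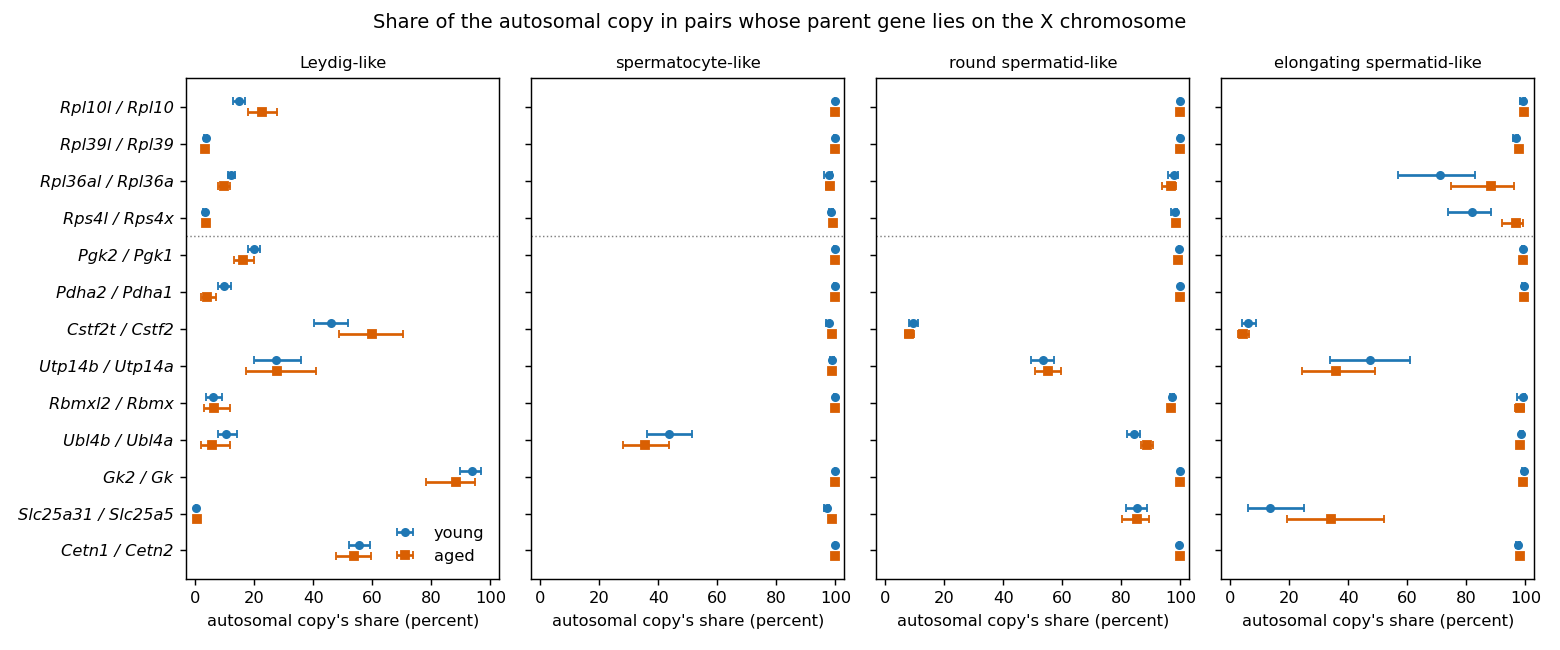
Share of the autosomal copy in the counts of pairs whose parent gene is on the X chromosome, in percent with exact Clopper-Pearson 95% intervals, for 4 ribosomal protein pairs (above the dotted line) and 9 other pairs, in the 4 classes of the young (circles) and aged (squares) library. In spermatocyte-like cells every ribosomal copy and 8 of 9 others lie above 90%, and in round spermatid-like cells Cstf2t and Utp14b lie far lower while Rpl10l and Rpl39l do not.

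Rpl22 and Rpl22l1 changed their balance without any X linkage. In Leydig-like cells Rpl22 stood at 341 CPM (young) and 305 CPM (aged), against 54.5 and 81.2 CPM in spermatocyte-like cells, 6.27-fold (5.85 to 6.72) and 3.75-fold (3.48 to 4.05) lower. Rpl22l1 stood at 125 and 121 CPM in Leydig-like and at 224 and 211 CPM in spermatocyte-like cells, 1.79-fold (1.67 to 1.92) and 1.75-fold (1.57 to 1.95) higher and under the 2-fold line. Its share of the pair's counts was 26.8% (25.3 to 28.2) and 28.4% (25.8 to 31.0) in Leydig-like cells and 80.4% (79.4 to 81.4) and 72.2% (71.4 to 73.0) in spermatocyte-like cells. Divided by the longest coding transcript (2051 bases for Rpl22 and 552 for Rpl22l1) the shares were 57.6% and 59.6% in Leydig-like and 93.8% and 90.6% in spermatocyte-like cells. With the Rpl22 transcript of 474 bases, whose coding sequence was aligned above, they were 23.9% and 25.4%, and 77.9% and 69.1%. Which member is the more abundant in Leydig-like cells per length thus turns on the transcript taken, while the share was higher in spermatocyte-like cells on every scale.

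The shift came in meiosis. In the 23 aged cells with spermatogonia markers Rpl22 stood at 883 CPM (712 to 1083), above its Leydig-like level, and Rpl22l1 made 17.9% (11.3 to 26.2) of the pair. In the aged Dmc1 group Rpl22 stood at 343 CPM (229 to 492), and in early to mid spermatocyte-like cells at 132 CPM (young) and 143 CPM (aged). In late spermatocyte-like cells it stood at 50.4 and 55.0 CPM, so that the early to mid level was 2.62-fold (2.18 to 3.12) and 2.59-fold (2.42 to 2.78) the late one. Rpl22l1 hardly moved over the same step, at 225 and 189 CPM in early to mid and 224 and 221 CPM in late cells, a ratio of 1.005 (0.879 to 1.14) and 0.856 (0.816 to 0.899). Its share accordingly was 63.0% (58.0 to 67.9) and 57.0% (55.4 to 58.5) in the earlier and 81.6% (80.6 to 82.6) and 80.0% (79.1 to 80.9) in the later stage.

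The balance turned back in the most advanced spermatids. Rpl22l1 stood at 137 and 130 CPM in cluster 11 and at 24.96 and 21.1 CPM in cluster 7, while Rpl22 stood at 49.5 and 51.3 CPM and then at 88.5 and 91.6 CPM. The share of Rpl22l1 was 73.4% (68.6 to 77.8) and 71.7% (67.3 to 75.9) in cluster 11 and 22.0% (17.0 to 27.7) and 18.8% (13.0 to 25.7) in cluster 7. In the part of cluster 7 with few Sertoli markers it was 16.1% (11.2 to 22.2) and 14.9% (8.93 to 22.8), as low without the Sertoli-marked cells as with them.

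Among the 4 main classes Rps27l was highest in Leydig-like cells. Its level was 248 CPM (young) and 269 CPM (aged) in Leydig-like cells, then 79.6 and 80.7 in spermatocyte-like, 71.1 and 58.1 in round spermatid-like and 29.4 and 28.9 in elongating spermatid-like cells, and no neighbouring intervals overlapped. Its parent Rps27 had the same order of classes, with 499 and 428, 220 and 267, 175 and 167, and 146 and 145 CPM. Against all core ribosomal protein counts, however, Rps27 was nearly level, at 13.4, 12.8, 12.9 and 11.99 of every 1000 in the young classes and 13.1, 13.1, 13.0 and 12.3 in the aged ones. Rps27l, which is not in that total, stood at 6.67, 4.63, 5.22 and 2.41 per 1000 in the young and 8.24, 3.96, 4.52 and 2.45 in the aged classes. The share of Rps27l in the pair was 33.2% (32.0 to 34.4) and 38.5% (36.4 to 40.7) in Leydig-like and 26.6% (25.5 to 27.7) and 23.2% (22.5 to 23.9) in spermatocyte-like cells. In the aged Dmc1 group of cluster 14 Rps27l stood at 295 CPM (191 to 436) with a share of 43.1% (30.2 to 56.8), and in the 23 cells with spermatogonia markers at 154 CPM (87.8 to 249). Among germ cell clusters the share was lowest in cluster 7, at 7.96% (5.51 to 11.1) and 7.69% (4.76 to 11.6), and at 5.09% and 3.70% in that cluster's cells with few Sertoli markers. The column Rps27rt, a retrogene relative with 233 CPM in young Leydig-like and 116 CPM in young spermatocyte-like cells, may take reads of Rps27, which was not tested.

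Rpl3l was practically undetected. It had 12 counts in all young and 4 counts in all aged cells, of which 7 and 1 lay in Leydig-like cells (0.887 and 0.357 CPM). Elongating spermatid-like cells held 0 counts in either library, which allows up to 0.874 CPM (young) and 0.952 CPM (aged) by exact Poisson interval. Rpl3 stood at 142 and 116 CPM in Leydig-like, 46.0 and 51.2 in spermatocyte-like, 27.9 and 27.0 in round spermatid-like and 17.1 and 18.3 in elongating spermatid-like cells, in the same order in both libraries with no overlap between neighbours. This pair showed no exchange in any class.

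Counted over the pairs, 2 of 9 members with 10 or more counts (Rpl10l and Rpl39l) were at least 2-fold higher in spermatocyte-like than in Leydig-like cells of the young library, where 37.1% of all genes were, and 6 were at least 2-fold lower, where 39.5% of all genes were. In the aged library 2 were higher, against 37.9% of all genes, and 5 lower, against 34.4%. With 9 members, little can be read from these shares. The 72 core ribosomal protein genes outside the pairs and the X chromosome had a median log2 ratio of -1.18 (young) and -0.78 (aged), beside -0.22 and 0.15 over all genes, and 44 and 25 of them were at least 2-fold lower. From spermatocyte-like to round spermatid-like cells 1 of 9 members (Rpl10, on 9 and 6 counts) was past the line upwards and 0 downwards in the young library, where 32.2% and 25% of all genes were, and 0 and 0 in the aged library, where 31.2% and 30.6% were. From round to elongating spermatid-like cells 1 member (Rpl39) was higher and 4 (Rpl10l, Rpl39l, Rpl22l1 and Rps27l) lower in the young library, beside 18% and 40.8% of all genes. In the aged library 1 of 8 was higher and 3 lower, beside 17.7% and 37.1%, since Rpl39l stood just under the line.

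Between the ages no paralog was past a 1.5-fold line in Leydig-like, spermatocyte-like, round spermatid-like or elongating spermatid-like cells taken whole. The small macrophage-like and fibroblast-like groups, given at the end, were not part of this comparison. In Leydig-like cells 1 of 9 members, Rpl10, was past that line downwards, where 13.3% of all genes were, and 0 upwards, where 11.1% were. Rpl10 stood in aged cells at 0.645 times (0.557 to 0.746) its young level, and its pseudogene column Rpl10-ps3 at 0.650 times (0.591 to 0.713). Ages and clusters were mixed in this comparison. In cluster 1, with 1055 young and 57 aged cells, the ratio was 0.613 (0.362 to 0.973), and in cluster 5, with 30 young and 523 aged cells, it was 1.06 (0.644 to 1.85). Rpl39 was at 0.935 times (0.888 to 0.985), Rpl22 at 0.893 (0.826 to 0.965), Rpl3 at 0.811 (0.714 to 0.918) and Rps27 at 0.858 (0.804 to 0.915). The 72 core ribosomal protein genes had a median log2 ratio of -0.22 in these cells with 0 past the line, beside -0.01 over all genes. Among the paralogs Rps27l was at 1.08 (0.993 to 1.18), Rpl22l1 at 0.969 (0.854 to 1.10), Rpl10l at 1.09 (0.810 to 1.45) and Rpl39l at 0.858 (0.638 to 1.14). Within single clusters some of these moved on few counts. In cluster 5 Rpl22l1 was at 1.73 times (1.03 to 3.12; 15 young and 304 aged counts) and Rpl10l at 5.45 times (0.943 to 218; 1 and 64 counts). In cluster 1 Rpl39l was at 0.163 times (0.00411 to 0.918; 205 and 1 counts), Rpl22l1 at 1.21 times (0.835 to 1.69) and Rpl10l at 0.583 times (0.119 to 1.73).

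Genes of the p53 response were higher over all aged Leydig-like cells, while Rps27l was not past the line. Of 16 such genes, 11 were at least 1.5-fold higher and 0 lower, beside 11.1% and 13.3% of all genes, with a median log2 ratio of 0.99. The whole classes set 1055 young cells of cluster 1 against 523 aged cells of cluster 5. Within cluster 1, 3 of the 16 were higher and 3 lower, beside 20.6% and 30.3% of all genes, and within cluster 5, 5 were higher and 2 lower, beside 24.6% and 17.9%. Unlike the calls over whole classes, these used plain ratios without 0.5 added to the counts, so the numbers are not on the same scale. In cluster 1 Eda2r and Tnfrsf10b were called lower on 0 aged counts. The apoptosis gene Bbc3 stood at 2.79 CPM (young) and 13.9 CPM (aged) (ratio 4.99, 2.89 to 8.84). The cell cycle inhibitor Cdkn1a stood at 35.8 and 160 CPM (4.46-fold, 3.83 to 5.19), and Phlda3 at 7.85 and 29.2 CPM (3.72-fold, 2.65 to 5.27). Within cluster 1 the ratios were 1.76 (0.0423 to 11.1) for Bbc3, 1.19 (0.537 to 2.29) for Cdkn1a and 3.29 (1.16 to 7.58) for Phlda3. Within cluster 5 they were 1.08 (0.342 to 5.46), 1.25 (0.860 to 1.87) and 6.47 (1.13 to 259). Phlda3 there had 1 young count, and in cluster 1 it had 6 aged counts. Over all Leydig-like cells the lowest ratios were those of Sesn2 (0.984, 0.621 to 1.52), Fas (1.26, 0.828 to 1.87) and Btg2 (1.34, 1.28 to 1.41). As a share of its pair, Rps27l made 38.5% in aged against 33.2% in young Leydig-like cells, with no overlap of intervals. The share was 39.2% (37.0 to 41.5) against 38.9% (31.3 to 46.9) within cluster 5. Within cluster 1 it was lower in aged cells, at 30.9% (24.0 to 38.6) against 33.0% (31.8 to 34.3), with overlapping intervals.

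In spermatocyte-like cells 0 of 9 members were past the line upwards, beside 17.3% of all genes, and 1 (Rpl39, on 41 and 47 counts) downwards, beside 14.1%. Rpl39 was at 0.619 times (0.398 to 0.965) its young level there, while Leydig markers in the same cells stood at 254 CPM (young) and 215 CPM (aged). Their part in the trace of Rpl39 was not tested. Rpl22 lay just inside the line at 1.49 times (1.39 to 1.60) its young level. Among late spermatocyte-like cells alone, compared because 40 young and 815 aged cells were in the earlier stage, Rpl22 was at 1.09 times (1.01 to 1.18). Rpl10l was at 0.933 times (0.914 to 0.953), Rpl39l at 0.916 (0.899 to 0.933) and Rpl22l1 at 0.944 (0.911 to 0.978) over all spermatocyte-like cells.

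In round spermatid-like cells 0 of 9 members were higher by 1.5-fold, beside 8.34% of all genes, and 1 (Rpl10, with 9 young and 4 aged counts and an interval of 0.117 to 1.86) lower, beside 8.38%. Rpl10l was at 0.948 times (0.916 to 0.981), Rpl39l at 0.856 (0.831 to 0.882), Rpl22l1 at 0.881 (0.833 to 0.932) and Rps27l at 0.818 (0.742 to 0.902) of the young level. Elongating spermatid-like cells had 0 of 8 members higher, beside 12.2% of all genes, and 1 lower, beside 8.42%. This was Rpl39, at 0.617 times (0.380 to 0.983), and within cluster 7 alone it was at 1.01 times (0.617 to 1.64). Rpl10l was at 1.18 times (1.05 to 1.34) and Rpl39l at 0.944 (0.877 to 1.02).

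**Figure D4:**
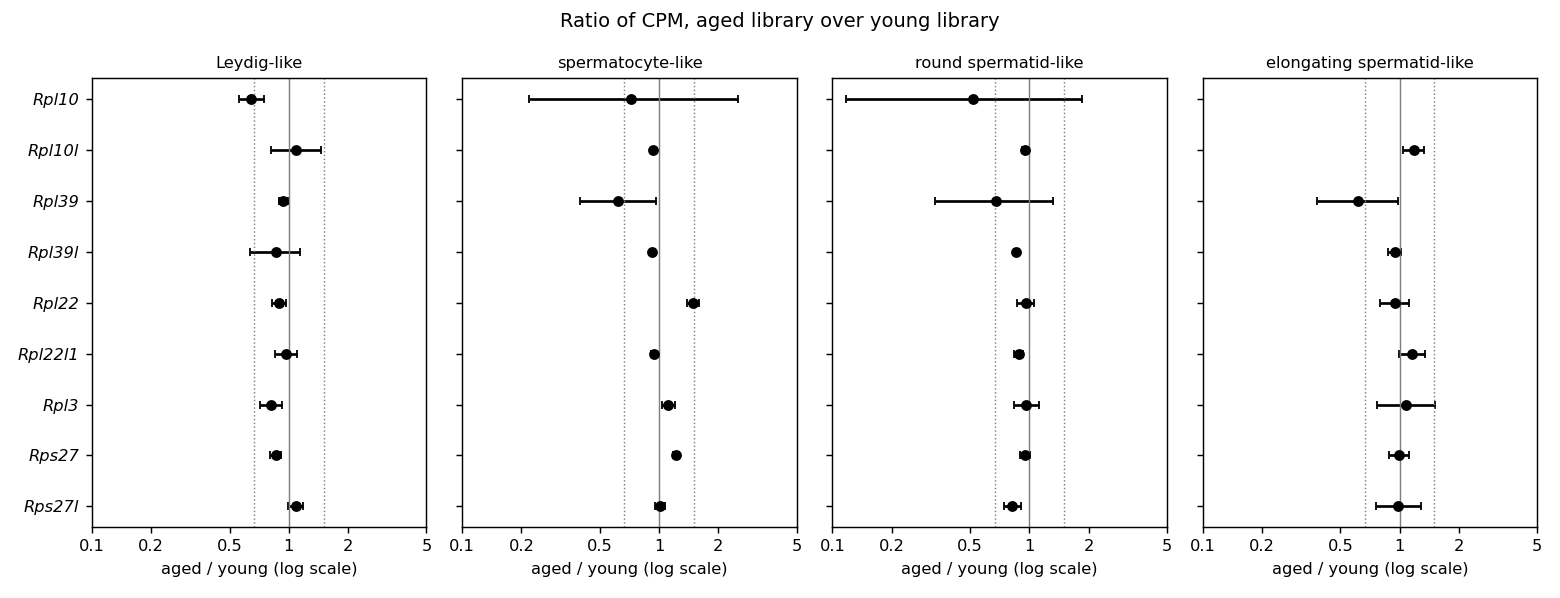
Ratio of CPM in the aged to the young library (log scale) for each member with 10 or more counts in a class, with exact conditional binomial 95% intervals, where the solid line marks equality and the dotted lines 1.5-fold either way. Rpl10 in Leydig-like cells (0.645) is the abundant member past a line, and the other points past it, Rpl39 and Rpl10 in germ cells, rest on 53 counts or fewer in each library.

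The genes whose levels followed a paralog most closely were taken from 11299 genes that reached 50 CPM in a cluster, over the 28 points described above. For Rpl10l they were Mns1 (Pearson r = 0.99), Spata16 (0.98) and 1700001G11Rik (0.98), and for Rpl39l Dnajc5g (0.98), Lrrc46 (0.98) and 3110070M22Rik (0.97). For Rpl22l1 they were Abhd16a (0.93), Snrpg (0.92) and Eif3e (0.90), and for Rps27l Mrpl17 (0.96), Iscu (0.95) and Erlec1 (0.95). Against their own parents the correlations were -0.83 for Rpl10l, -0.85 for Rpl39l, 0.38 for Rpl22l1 and 0.78 for Rps27l.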

How the data were processed

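The deposited values are whole-number counts of each gene in each cell, in a table for each library, and no scaling is recorded. Per the file headers, the aged table came from version 1.7.1 of the BD Rhapsody pipeline with a STAR index of version 2.5.2b. Cell Ranger 2.11 and mm10 stand in the submitters' processing notes of both libraries, so the sources differ, and how cells were called is not given in the sources used here. Cell totals began at 3215 counts (young) and 186 (aged), and 28.1% of the analysed aged cells lay under 3215.

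Cells needed 500 counts, 200 genes and no more than 25% of counts from mitochondrial DNA, and Scrublet called 38 young (1.37%) and 121 aged (2.08%) cells doublets, which were removed. Both libraries were clustered together in scanpy 1.11.5 (up to 2000 variable genes without ribosomal protein genes, which left 1992; 40 components, 15 neighbours, leidenalg 0.10.2, resolution 1). A cluster was named where its best marker score was 0.5 or more with 3 markers up, and left unnamed where another class lay within 0.15 or above 1.5, or where it was shallow without markers of its own. These limits were set after clusters had been seen.

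For each library, the counts of all cells of a class were added up. Levels carry exact Poisson, ratios exact conditional binomial and shares exact Clopper-Pearson 95% intervals, computed with scipy 1.17.1 and tested on simulated data. The simulated counts were Poisson or binomial draws, the forms the intervals assume, so spread between cells or mice was left out. Log2 ratios used 0.5 added to each count. Calls need 10 counts and 1.5-fold (age) or 2-fold (classes) and are of size alone. Coding sequences were aligned with biopython 1.88. Of all gene names, 98.4% were found in GENCODE M21.

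The members and the gene lists were chosen with earlier results of these data known. All 10 members are named, from other lists the genes past the fold or, where many, those with the 3 highest and 3 lowest ratios, and per paralog the 3 genes most correlated with it. From the lists of other X-linked pairs and core ribosomal genes the text gives a part. Groups of cells from clusters 14 and 7, the late stage, clusters 3 and 5 alone, the p53 genes within clusters and the aligned transcript's length were chosen after seeing the data. Alternatives to filters, doublets, resolution, naming, depth, weighting, stray RNA, pseudogenes, length and scaling were run 1 at a time.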

Additional observations from a re-analysis of the deposited data

How the results depend on the processing

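In spermatocyte-like cells the paralog shares moved beyond their counting interval under some settings. Thinning to 2000 counts per cell gave Rpl10l 99.8% (young) and 99.9% (aged), Rpl22l1 83.2% and 68.4%, and Rps27l 31.6% (young). Subtracting stray RNA gave 100% for Rpl10l and Rpl39l in both libraries and 81.6% and 73.2% for Rpl22l1. The 100% was fixed in advance, because the traces of Rpl10 and Rpl39 lay below the stray level taken off. Adding pseudogene columns gave Rpl10l 99.5% and 99.8%. Equal weight per cell gave Rpl22l1 71.3% (aged). Division by transcript length gave Rpl22l1 93.8% and 90.6% and Rps27l 22.4% and 19.4%, and by the length of the aligned transcript 77.9% and 69.1%, and 17.8% and 15.3%. Cluster 0 alone gave Rpl22l1 82.0% and 80.6%. In aged cells cluster 2 alone gave Rpl10l 99.99%, Rpl39l 99.9%, Rpl22l1 79.7% and Rps27l 21.4%, and cluster 3 alone gave 99.9%, 99.7%, 57.0% and 25.2%, with 100%, 99.6% and 63.0% for the first 3 in its 40 young cells.

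Counts of members past the 1.5-fold line between the ages were small and moved by 1 or 2. Members higher in aged Leydig-like cells numbered 2 with doublets kept. In elongating and round spermatid-like cells 1 was higher after thinning, and in spermatocyte-like cells 1 with classes from each cell's score, after thinning, with equal weight per cell or with stray RNA subtracted. Members lower numbered 0 with scored classes and 2 within cluster 1 in Leydig-like cells. In spermatocyte-like cells they numbered 0 with the lowest young total in both libraries, scored classes, thinning or stray RNA subtracted, and 2 with pseudogene columns. In round spermatid-like cells they numbered 2 with no filter beyond 200 counts, the lowest young total, doublets kept, resolution 0.5 or 2 and pseudogene columns, and 0 with stray RNA subtracted or in clusters 8 or 12 alone. In elongating spermatid-like cells they numbered 0 with no filter beyond 200 counts, the lowest young total, doublets kept, resolution 0.5, equal weight, stray RNA subtracted or clusters 7 or 11 alone, and 2 with pseudogene columns. The cause was not tested. The log2 ratio of Rpl39 there turned from -0.69 to 0.026 at resolution 0.5 and in cluster 7 alone and to 0.41 with equal weight per cell. That of Rpl10 in Leydig-like cells was -0.63 and turned to 0.041 in cluster 5 alone, which holds 523 of the 580 aged cells. There 2 members were higher and 0 lower.

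No paired analysis was possible because each age has 1 library and the labels give no replicate numbers. Depth limits Rpl10, Rpl39 and Rpl3l in germ cells, where a class holds 53 counts or fewer.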

Other observations

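Outside the Leydig and germ cells the pairs were measured in small groups. In 127 young macrophage-like cells Rpl39 stood at 1585 CPM (1492 to 1684) and Rpl10 at 273 CPM (235 to 316), beside 17.8 CPM of Rpl39l and 13.4 CPM of Rpl10l. In 70 aged macrophage-like cells, which sat in cluster 16 while 89 of the young ones sat in cluster 18, Rpl39 stood at 388 CPM, Rpl39l at 228 CPM and Rpl10l at 148 CPM. There 33 of 40 counts of Rpl39l and 22 of 26 of Rpl10l lay in 2 cells. The 38 young cells of cluster 16 held Rpl39 at 400 CPM, so that the aged level within this cluster was 0.969 times (0.683 to 1.37) the young one. In cluster 18, measured in young cells alone, Rpl39 stood at 1993.5 CPM. A group of 15 cells of cluster 14, of which 14 were aged, had macrophage markers at 26977 CPM and Rpl39 at 2179 CPM. In fibroblast-like cells, 17 young and 130 aged, Rpl39 stood at 906 and 1117 CPM, Rpl22l1 at 375 and 308 CPM and Rpl3 at 298 and 273 CPM.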
